A study of Mus musculus with 24 samples.

Results

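Bone-marrow-derived macrophages lacking MK2 were compared with wild-type macrophages after IL-4 treatment, in 12 of the 24 libraries of the series. The members were taken from the sample titles: 6 knockout libraries with IL-4 (genotype MK2 KO) and 6 wild-type libraries with IL-4 (genotype MK2 WT), and every gene in the count table was examined. All mice were of strain C57BL/6N. Marrow from femurs and tibias was grown in medium with M-CSF at 10 ng/ml, the growth factor that drives marrow progenitors to become macrophages, and the cells were replated on day 7. The libraries with IL-4 came from cells given murine IL-4 at 10 ng/ml and harvested 24 h later (called M2 in the labels), and the other 12 libraries came from unstimulated cells of each genotype (M0). The knockout allele and the age of the mice are not given in the sources used here. The labels do not say whether the 6 libraries of a group came from separate animals, so the p-values below measure the spread between these libraries.

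MK2, the product of Mapkapk2, is a kinase activated by p38 MAP kinase in stressed or inflamed cells. It phosphorylates tristetraprolin (Zfp36), a protein that otherwise drives the decay of messenger RNAs carrying AU-rich elements in their 3′ untranslated regions, among them the messages of TNF and other cytokines. IL-4 acts on macrophages through JAK kinases and STAT6 and induces a set of genes known as alternative activation, which includes lectins, arginase and the chemokines of type 2 immunity.

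The 12 libraries with IL-4 held 7893809 to 13492507 counts each. In these cultures the 20 macrophage identity markers, among them Adgre1 (F4/80) and Csf1r (the M-CSF receptor), summed to 27470, 27900 and 34530 counts relative to library size (CPM; lowest, median and highest of 6) in wild type and to 24230, 27270 and 28730 in knockout, and none was at 0. Replicates 1 to 3 and 4 to 6 carry library numbers from 2 separate ranges, and replicate 2 of both genotypes with IL-4 was numbered apart from these. With IL-4, these replicate 2 libraries also had the lowest summed level of 5 sex-linked genes in their groups. Wild-type replicate 2 summed to 145 CPM, while the rest of its group ran from 226.5 to 257 CPM. Knockout replicate 2 summed to 176 CPM, while the rest ran from 230.4 to 255 CPM. Among libraries without IL-4, wild-type replicate 3 was the one numbered apart, and its sum was the lowest of its group (196.6 CPM). Replicate 2 was not the lowest there (wild type 231.1 CPM, knockout 286 CPM). The cause of these low sums was not tested. The genotype difference was therefore also fitted with the libraries of each set alone. A further fit of 8 groups, added after seeing the data, took all 24 libraries at once and gave the difference within each set. Some calls differed between these 2 kinds of fit, and values given as alone come from the first.

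Of 12797 genes tested, 588 differed between knockout and wild type with IL-4 (4.59%; edgeR quasi-likelihood test, Benjamini-Hochberg adjusted p under 0.05). Of these, 193 were higher in knockout (1.51%) and 395 were lower (3.09%). The 2 directions differed in size: the median log2 fold change (log2FC, knockout over wild type) was 0.46 among the rises and -1.41 among the falls. Only 23 rises reached a log2 fold change of 1, against 235 falls of at least that size. The median over all genes tested was 0.01. All 6 knockout libraries lay above all 6 wild-type libraries for 139 genes (1.09%), and all 6 lay below for 325 genes (2.54%).

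**Figure D1:**
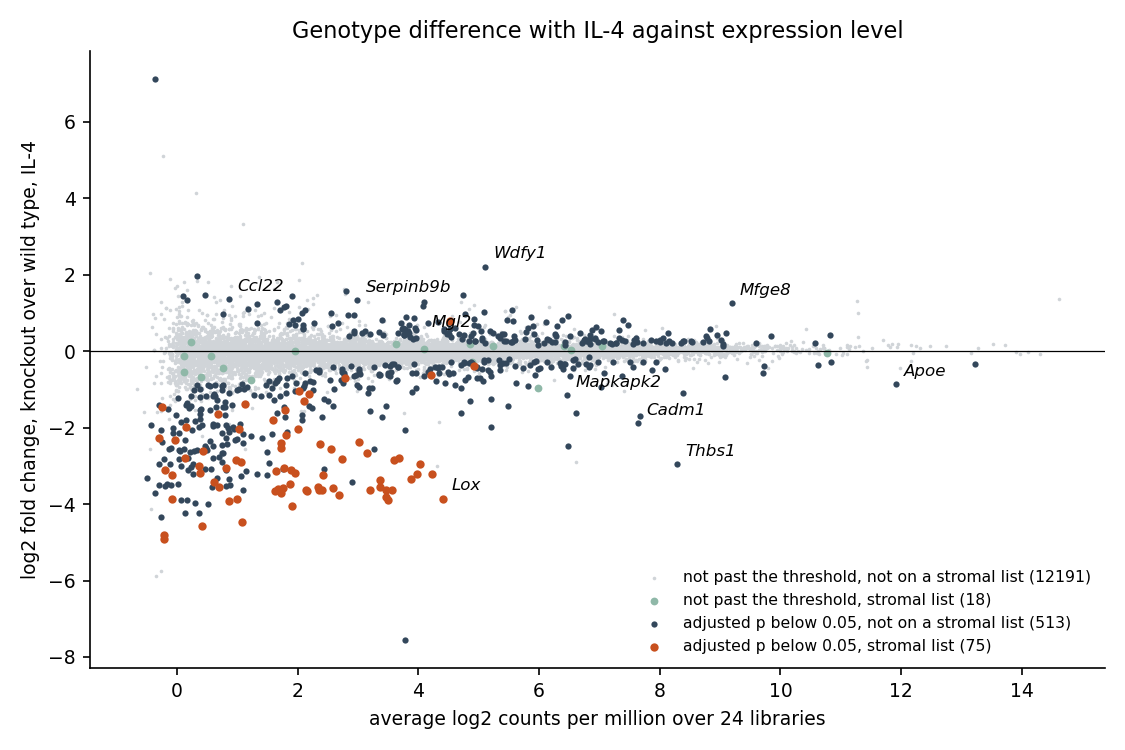
Log2 fold change of knockout over wild type with IL-4 (y axis) against average log2 CPM over the 24 libraries (x axis) for the 12797 genes tested, coloured by adjusted p and by membership of the stromal lists. The listed stromal genes that passed the threshold form a band of large falls at low expression, while the rises extend to high expression and are smaller.

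Mapkapk2 itself (chr1:131053700-131097826 in GRCm38, minus strand) was examined first, as a check of the labels. Its level was 113, 116.5 and 139 CPM (lowest, median, highest) in wild type and 47.8, 54.0 and 60.7 CPM in knockout with IL-4. The groups did not overlap, and Mapkapk2 transcript remained at 0.451 of the wild-type level in knockout (log2FC -1.15, SE 0.07, adjusted p = 2.26e-11). The fall without IL-4 was of similar size (log2FC -1.02). Mapkapk3, the closest relative of MK2, was at 49.2 to 91.1 CPM in wild type against 64.0 to 88.8 CPM in knockout, and this difference did not pass the threshold (log2FC 0.30, SE 0.11, adjusted p = 0.196). With replicates 4 to 6 alone Mapkapk3 passed (log2FC 0.49, adjusted p = 0.000469).

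Of 27 tested genes of the p38 and MK2 pathway, 3 were higher and 1 (Mapkapk2) was lower, beside 1.51% higher and 3.09% lower over all genes tested. Dusp4 and Dusp1 encode phosphatases that switch off MAP kinases. Dusp4 ranged from 42.3 to 56.9 CPM in wild-type cells and from 65.6 to 105.5 CPM in knockout (median 48.4 against 85.7; log2FC 0.81, adjusted p = 0.00022). Dusp1 moved less, from a median of 24.2 CPM to 32.3 CPM (log2FC 0.44, adjusted p = 0.00329). Lsp1, an actin-binding protein that MK2 phosphorylates, rose from a median of 11 CPM to 21 CPM (log2FC 0.97, adjusted p = 0.0037). For all 3 genes, the lowest knockout library exceeded the highest wild-type library. Lsp1 missed the threshold with replicates 4 to 6 alone (log2FC 0.64, adjusted p = 0.114). In the fit of 8 groups it passed in these replicates (adjusted p = 0.0462).

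The lectin Mgl2, the transcription factor Irf4, the chemokine Ccl22 and the serpin Serpinb9b were 2.13 to 2.58 times as high in knockout as in wild type. Mgl2, a C-type lectin that binds galactose, was at 15.1, 19.6 and 25.6 CPM in the wild-type libraries and at 39.3, 46.2 and 50.6 CPM in knockout (2.28-fold; log2FC 1.19, SE 0.15, adjusted p = 3.97e-06). Irf4, a transcription factor of M2 macrophages, was at 2.13, 2.93 and 4.77 CPM against 5.65, 7.01 and 9.30 CPM (log2FC 1.09, SE 0.23, adjusted p = 0.00292). Ccl22, a chemokine that attracts cells through CCR4, was scarce, at 0.498, 0.966 and 1.62 CPM against 1.78, 2.46 and 5.38 CPM (log2FC 1.37, SE 0.37, adjusted p = 0.0266). Serpinb9b, of the family of intracellular protease inhibitors, was at 5.08, 6.49 and 8.33 CPM against 13.6, 16.9 and 20.2 CPM (log2FC 1.33, SE 0.12, adjusted p = 1.19e-08). In each case every knockout library lay above every wild-type library. The genotype difference was also taken within replicates 1 to 3 and within replicates 4 to 6, from the fit of 8 groups added after seeing the data. Mgl2 rose in both sets (log2FC 1.01 and 1.43), as did Serpinb9b (1.38 and 1.28). Irf4 and Ccl22 passed the threshold in replicates 4 to 6 (log2FC 1.68 and 2.20) and not in replicates 1 to 3 (0.57 and 0.50, adjusted p = 0.334 and 0.568). The difference between the sets did not pass for Irf4 (adjusted p = 0.203) or Ccl22 (0.101). Ccl22 also missed the threshold without knockout replicate 4 or 5 (adjusted p = 0.0504 and 0.11) and without wild-type replicate 3, 4, 5 or 6 (0.0675, 0.0586, 0.0713 and 0.0616).

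**Figure D2:**
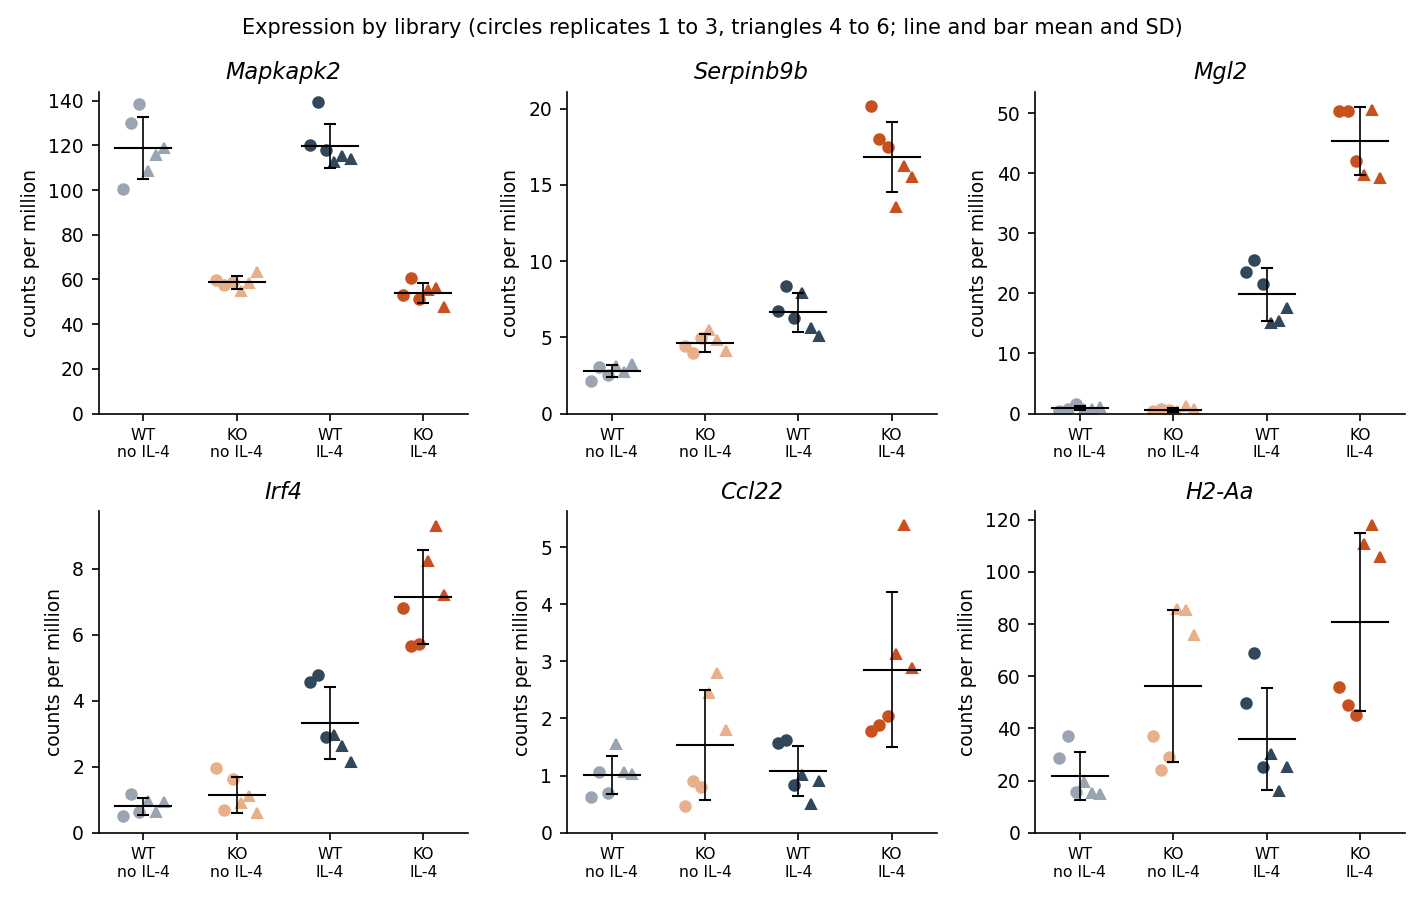
CPM (y axis, linear from 0) of Mapkapk2, Serpinb9b, Mgl2, Irf4, Ccl22 and H2-Aa in each of the 24 libraries, by genotype and treatment, with circles for replicates 1 to 3, triangles for replicates 4 to 6, and lines and bars for the mean and SD. With IL-4 the 2 genotypes do not overlap for the first 5 genes, while the knockout libraries of H2-Aa split into a low set (45.2 to 56.0 CPM) and a high set (106 to 118 CPM).

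Of 31 tested alternative-activation genes, 5 rose (beside 1.51% over all genes tested) and none fell. The median log2FC was 0.25 against 0.01 over all genes. Mgl2, Irf4 and Ccl22 were among the 5 rises. They were given beforehand as markers of this comparison, so the count is not independent of that choice. The other rises were in Flt1, a VEGF receptor (median 3.52 CPM to 8.25 CPM, log2FC 1.18, adjusted p = 0.00376), and Pparg, a lipid-sensing nuclear receptor (median 117 CPM to 145 CPM, log2FC 0.28, adjusted p = 0.0289). Pparg missed the threshold in 7 of the 12 fits that left out 1 library (adjusted p up to 0.0792, without knockout replicate 6). With replicates 1 to 3 alone neither Flt1 nor Pparg passed (adjusted p = 0.081 and 0.759). The count of rises on this list ran from 2 with replicates 1 to 3 alone to 19 with replicates 4 to 6 alone, where 468 genes rose in all. The textbook markers did not pass over all 6 replicates. Arg1 was at 4.98 to 9.93 CPM across wild type and 6.43 to 15.2 CPM in knockout (adjusted p = 0.222), and Retnla at 22.9 to 95.3 CPM and 49.7 to 129 CPM (adjusted p = 0.358). Both passed with replicates 4 to 6 alone (log2FC 1.04 and 1.64, adjusted p = 0.0126 and 1.98e-06) and not with replicates 1 to 3 alone (0.16 and 0.21, adjusted p = 0.98 and 0.975). Retnla also passed with a term for the library set (log2FC 0.88, adjusted p = 0.0351). Mrc1, the mannose receptor, had medians of 1487 and 1810 CPM (adjusted p = 0.206). The IL-4 signal transducer Stat6 was at 220 and 230 CPM by median (log2FC 0.04, SE 0.04, adjusted p = 0.846). Of 29 tested genes of IL-4 signalling, 1 rose and 2 fell, beside 1.51% and 3.09% over all genes tested. The receptor chain Il2rg rose (log2FC 0.44, adjusted p = 0.0184), a call lost without knockout replicate 1 or 2 or wild-type replicate 5 (0.0562, 0.0636 and 0.0516). Socs3 and Irs1 fell from wild-type medians of 1.51 and 1.12 CPM to 0.436 and 0.0601 CPM. Il2rg missed the threshold with replicates 4 to 6 alone (adjusted p = 0.0964), Irs1 with replicates 1 to 3 alone (0.351) and Socs3 with either set alone (0.218 and 0.0621).

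The largest rise among genes at an average log2 CPM of 2 or more, with predicted genes set aside, was in Wdfy1, a FYVE-domain protein that acts at endosomes in Toll-like receptor signalling. Wdfy1 was at 10.8, 13.2 and 14.2 CPM in wild type against 49.1, 61.5 and 62.8 CPM in knockout (4.63-fold; log2FC 2.21, SE 0.09, adjusted p = 3.84e-15). The rise was 2.25 in replicates 1 to 3, 2.17 in replicates 4 to 6 and 2.00 without IL-4, all on the log2 scale. Wdfy1 (chr1:79702262-79776143) lies on the same chromosome as Mapkapk2, 51.3 Mb away. Cdkn1c, the cell-cycle inhibitor p57, rose from 12.2, 13.0 and 15.2 CPM to 33.2, 34.1 and 45.4 CPM (log2FC 1.46, SE 0.12, adjusted p = 1.97e-09). Tnip3, which restrains NF-kB signalling, went from a median of 22.2 CPM to 49.0 CPM, and Npy, a neuropeptide, from 27.1 CPM to 58.1 CPM. Dhrs9, a retinol dehydrogenase, was at 82.6 to 96.5 CPM in wild-type cells and at 147 to 185 CPM in knockout.

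Of 16 tested genes of cell fusion and osteoclast formation, 5 rose (beside 1.51% over all genes tested) and none fell (median log2FC 0.12). Dcstamp and Ocstamp encode membrane proteins needed for macrophages to fuse into multinucleated cells. Dcstamp was at 2.44, 4.31 and 7.04 CPM in the wild-type libraries and 8.03, 12.4 and 19.4 CPM in knockout (log2FC 1.57, SE 0.30, adjusted p = 0.00155). Ocstamp rose from a median of 1.25 CPM to 2.63 CPM (log2FC 1.46, adjusted p = 0.019), and the tetraspanin Cd9 from 478 CPM to 621 CPM (log2FC 0.34, adjusted p = 0.00228). The kinase Src and the integrin chain Itgb3 overlapped between the groups (log2FC 0.57 and 0.56, adjusted p = 0.0165 and 0.0258). Leaving out 1 library ended the call of Ocstamp in 3 of 12 fits (adjusted p up to 0.0674), of Src in 1 (0.0525, without wild-type replicate 3) and of Itgb3 in 6 (up to 0.087, without knockout replicate 1). With replicates 1 to 3 alone, 2 genes of this list rose, and Dcstamp, Ocstamp, Cd9 and Src were not among them (adjusted p = 0.449, 0.817, 0.164 and 0.492). In the fit of 8 groups Cd9 passed in replicates 1 to 3 (adjusted p = 0.0158), and Dcstamp, Ocstamp and Src did not. Itgb3 missed the threshold with replicates 4 to 6 alone (0.207). Mfge8, a secreted bridge between dying cells and phagocytes, was among the most abundant genes that rose, at 248, 372 and 796 CPM against 871, 1036 and 1096 CPM (log2FC 1.26, SE 0.23, adjusted p = 0.00124). The wild-type replicate 2, at 796 CPM, stood above its group but below every knockout library. Mfge8 missed the threshold with replicates 1 to 3 alone (log2FC 0.99, adjusted p = 0.413).

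Transcripts of stromal cells are described apart from those of macrophages. Fibroblast and marrow stromal genes were listed by their products: collagens and other matrix, contractile proteins, stromal transcription factors and receptors, and secreted factors. Together the 5 lists held 143 genes, of which 93 were tested, 74 fell and 1 rose, with a median log2FC of -2.84. Over all genes tested, 3.09% fell and 1.51% rose. A gene can pass the count filter through the libraries of 1 group alone, and 44 of the 74 had a knockout mean under 1 CPM. Such genes could enter the test through their wild-type level only, so the share that fell is not independent of the filter. Of the 74 falls, 70 showed no overlap between genotypes, as did 211 of the 321 falls on no stromal list. All of these genes had already been called lower. Over all genes tested, 2.54% had every knockout library below every wild-type library. These transcripts were scarce in both genotypes: the median of their mean level was 5.54 CPM across wild type and 0.699 CPM in knockout, and none had an average log2 CPM of 5 or more. In bulk RNA, fewer stromal cells and less stromal RNA per cell cannot be told apart.

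Of 49 tested genes of collagens and other matrix, 42 fell. Col1a1, a chain of type I collagen, was at 14.8, 18 and 20.8 CPM in wild type against at 0.361, 1.38 and 3.01 CPM in knockout (log2FC -3.56, SE 0.33, adjusted p = 4.19e-08). Fbn1 (fibrillin) fell from a median of 9 CPM to 0.809 CPM, Sparc (osteonectin) from 20 CPM to 2.65 CPM and Bgn (biglycan) from 21 CPM to 2.12 CPM. The collagen cross-linking enzyme Lox was the most abundant of the strongest stromal falls, at 29.3, 50.5 and 61.4 CPM against 2.28, 2.96 and 6.02 CPM (14.5-fold lower). Ogn, a small matrix proteoglycan, had 82 counts over the wild-type libraries and 2 over the knockout libraries, a ratio of 41 (exact 95% interval 11 to 344, counting error only).

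Of 12 contractile genes tested, 9 fell, among them Acta2, smooth-muscle actin, from a median of 17.7 CPM to 2.68 CPM (log2FC -2.80, adjusted p = 1.66e-09). Of 11 identity genes, 8 fell. Pdgfra, a receptor that marks mesenchymal cells, was at 2.67, 3.71 and 5.48 CPM in wild-type cells and 0.0784, 0.121 and 0.335 CPM in knockout. Of 21 secreted factors, 15 fell and 1 rose. Cxcl12, the chemokine that holds blood progenitors in marrow, was at 3.8, 6.82 and 8.55 CPM against 0.112, 0.238 and 0.892 CPM (log2FC -4.06, adjusted p = 7.49e-09). The rise was in Mmp13, a collagenase that macrophages also make (median 20.3 CPM to 36.5 CPM, log2FC 0.79, adjusted p = 0.000276).

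The summed level of 21 stromal markers was 157, 170.4 and 214 CPM in wild type with IL-4 and 12.7, 19.1 and 29.7 CPM in knockout. All 17 of the markers that were tested fell, a count with the same limit from the count filter. The same sum was 176 to 262 CPM in the wild-type libraries and 13.8 to 42.5 CPM in knockout without IL-4, with a gap of the same direction. Both replicate sets showed it in the fit of 8 groups. Of 93 stromal genes tested, 68 fell and 2 rose in replicates 1 to 3 (median log2FC -2.75). In replicates 4 to 6, 68 fell and none rose (-2.99). Over all 12797 genes tested, 376 fell and 249 rose in the first set, and 318 fell and 185 rose in the second. The limit from the count filter applies to these stromal counts too. Of other cell types, summed endothelial markers overlapped but ran higher in knockout, at 231 to 336 CPM against 176 to 249 CPM, and those of red cells and megakaryocytes were lower by median, at 103 CPM against 146 CPM. Of the endothelial list only 4 of 17 genes were tested, and Vwf and Eng were the 2 that rose (log2FC 0.64 and 0.31), beside 1.51% over all genes tested. Most of the summed endothelial level came from these 2 genes. Vwf alone was at 118.5 to 177 CPM in wild type and 176 to 274.5 CPM in knockout. Eng missed the threshold in 6 of the 12 fits that left out 1 library (adjusted p up to 0.0983, without knockout replicate 2) and with replicates 1 to 3 alone (0.51).

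**Figure D3:**
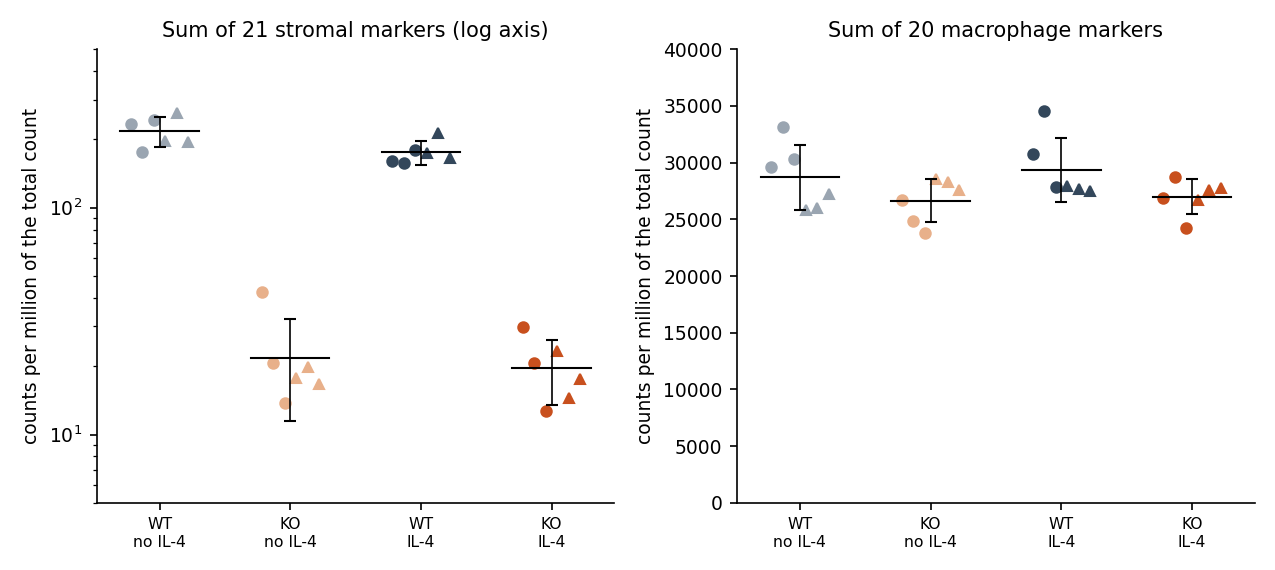
Summed CPM of the total count for 21 stromal markers (left, log axis) and 20 macrophage identity markers (right, linear from 0) in each library by genotype and treatment, with circles for replicates 1 to 3, triangles for replicates 4 to 6, and lines and bars for the mean and SD. Knockout libraries with IL-4 sit between 12.7 and 29.7 CPM in the stromal panel, below all wild-type libraries, while the genotypes overlap in the macrophage panel.

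A further 321 genes on no stromal list fell, with a median log2FC of -1.02. In 127 of them (39.6%) the knockout mean was under 1 CPM, against 44 of the 74 stromal genes (59.5%). Another 70 were abundant, whose average log2 CPM was 5 or higher, a level no fallen stromal gene reached. The summed stromal markers given above differ between the same libraries, and their part in these falls was not tested.

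Thbs1, the matricellular protein thrombospondin 1, showed the largest fall among abundant unlisted genes. Its level was 173, 733 and 901 CPM across wild type and 60.6, 78.3 and 92.7 CPM in knockout (7.77-fold lower; log2FC -2.96, SE 0.38, adjusted p = 1.44e-05), with no overlap. Epas1, the hypoxia-inducible factor HIF-2α, was at 46.2, 71.5 and 79.0 CPM against 8.81, 15.9 and 26.6 CPM (log2FC -1.98, adjusted p = 0.000345). Cadm1, an adhesion molecule, had wild-type libraries from 90.1 to 441 CPM and knockout libraries from 66.5 to 104 CPM, which overlapped (log2FC -1.89, adjusted p = 0.00362). Wild-type replicates 1 and 2 were at 107 and 90.1 CPM for Cadm1, and replicates 3 to 6 at 397 to 441 CPM. For Thbs1 these replicates were split in the same way, at 208 and 173 CPM against 720 to 901 CPM. Thbs1 and Cadm1 did not pass the threshold in a fit of replicates 1 to 3 alone (adjusted p = 0.0928 and 0.501). In the fit of 8 groups Thbs1 passed in these replicates (adjusted p = 0.00322) and Cadm1 did not (0.119).

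Apoe, the apolipoprotein that macrophages secrete with cholesterol, was at 3713, 4111 and 5680 CPM in wild type against 1738, 2598 and 3007 CPM in knockout (log2FC -0.86, SE 0.15, adjusted p = 0.000659). The cholesterol exporter Abca1 fell from a median of 864 CPM to 591 CPM (log2FC -0.58, adjusted p = 0.0113; 0.0599 in a fit of the groups with IL-4 only) and the desaturase Scd2 from 224 CPM to 121 CPM (log2FC -0.94, adjusted p = 1.92e-05). C1qa, a chain of complement C1q, was at 38.9 to 69.0 CPM against 21.9 to 39.5 CPM (log2FC -0.91, adjusted p = 0.000357). Mertk, a receptor for dying cells, and Lyz2, lysozyme, were the other macrophage identity genes that fell (log2FC -0.49 and -0.33, adjusted p = 0.0274 and 0.0436), and Itgam rose (0.19, adjusted p = 0.0473). Leaving out 1 library ended the call of Mertk in 6 of 12 fits (adjusted p up to 0.0823), of Lyz2 in 10 (up to 0.125) and of Itgam in 11 (up to 0.107). Lyz2 and Itgam were also lost with replicates 1 to 3 alone (adjusted p = 0.156 and 0.442). In the fit of 8 groups Lyz2 passed in these replicates (adjusted p = 0.0124) and Itgam did not (0.12). Of the 20 identity genes, 3 fell and 1 rose, beside 3.09% and 1.51% over all genes tested. The other 16 did not pass, including Adgre1 (median 1124 and 1262 CPM) and Csf1r (1071 and 1266 CPM). Csf1r passed with replicates 4 to 6 alone (log2FC 0.36, adjusted p = 0.000213) and not in these replicates in the fit of 8 groups (0.119).

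Csf1, which encodes M-CSF, was at 33.6, 39.0 and 47.5 CPM in wild-type cells and 14.4, 19.9 and 29.3 CPM in knockout with IL-4 (log2FC -0.95, SE 0.18, adjusted p = 0.00102). The groups did not overlap. The fall was -1.41 on the log2 scale with replicates 4 to 6 alone (adjusted p = 1.33e-06) and -0.59 with replicates 1 to 3 alone, where it did not pass (0.14). In the fit of 8 groups the fall passed in replicates 1 to 3 (adjusted p = 0.031). Stromal cells are a known source of M-CSF in marrow, and the part of the stromal difference in this fall was not tested.

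Angiogenic factors, the subject of the study's title, were mixed: of 41 tested, 6 rose and 14 fell (median log2FC -0.13), beside 1.51% and 3.09% over all genes tested. Of the 14 falls, 9 were also on a stromal list, among them Ctgf and Cyr61. The other 5 were Thbs1, Angpt2, Adm, Pdgfc and Mmp14. The list was not split into factors that promote and factors that inhibit vessel growth, so these counts give no direction for angiogenesis. Mmp14, a membrane-bound collagenase, was at 42.2, 46.5 and 56.9 CPM against 10.9, 19.1 and 36.9 CPM (log2FC -1.25, adjusted p = 0.00219), and Pdgfc, a growth factor, at 36.7 to 44.3 CPM against 18.3 to 29.0 CPM (log2FC -0.79, adjusted p = 0.000858). Mmp14 had a log2FC of -1.94 with replicates 1 to 3 alone (adjusted p = 0.000247) and of -0.70 with replicates 4 to 6 alone, where it did not pass (0.137). Vegfa, the main vessel growth factor, was at 16.3 to 22.6 CPM in the wild-type libraries and 13.7 to 18.7 CPM in knockout (log2FC -0.22, SE 0.10, adjusted p = 0.351). The 6 rises included Angptl2 (median 182 CPM to 316 CPM) and Pdgfa (log2FC 0.52, adjusted p = 8.44e-05).

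Chemokines split, with 3 rises (Ccl22, Ccl9 and Cxcl2) and 3 falls (Ccl8, Cx3cl1 and Cxcl14) among 16 tested, beside 1.51% and 3.09% over all genes. With replicates 1 to 3 alone none of the 16 passed, while 2 rose in these replicates in the fit of 8 groups. Ccl9 was the abundant one, at 503, 596 and 667 CPM across wild type and 753, 790 and 966 CPM in knockout (log2FC 0.48, adjusted p = 0.000456). It missed the threshold with replicates 1 to 3 alone (0.226) and passed in these replicates in the fit of 8 groups (0.0216). The eotaxin receptor Ccr3 was the only one of 13 chemokine receptors that passed, beside 4.59% over all genes tested. Ccr3 rose from a median of 44.9 CPM to 63.7 CPM (log2FC 0.65, adjusted p = 0.00172). Its log2FC was 1.03 with replicates 1 to 3 alone (adjusted p = 0.00371) and 0.33 with replicates 4 to 6 alone, where it missed the threshold (0.053). Among 8 clade B serpins, 2 rose and 1 fell, beside 1.51% and 3.09% over all genes tested. Serpinb6b rose with Serpinb9b, a marker given beforehand. Serpinb2, a plasminogen activator inhibitor, fell from a median of 2.49 CPM to 0.371 CPM. Of 37 interferon-stimulated genes, 4 fell (beside 3.09% over all genes tested) and none rose (median log2FC -0.34). The falls numbered 0 with replicates 1 to 3 alone (median -0.16), 6 with replicates 4 to 6 alone (-0.48) and 1 of 32 in a fit of the 2 groups with IL-4 only.

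The predicted genes Gm42429 and Gm7935 had the widest fitted fold changes, and were picked after their values were seen. Gm42429 (chr5:44134393-44134950, class TEC in GENCODE) was at 18.7 to 25.8 CPM in all wild-type libraries with IL-4, and at 0 in 5 knockout libraries and 0.672 CPM in the other (log2FC -7.55, adjusted p = 4.31e-09). Without IL-4 it was at 22.3 to 63 CPM against 0 to 1 CPM. Gm7935, a processed pseudogene on chromosome 15, was at 0 in all 6 wild-type libraries with IL-4 and at 0 to 4.83 CPM in knockout.

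Because the libraries fall into 2 numbered sets, the genotype difference was also fitted within each, with 3 libraries against 3, in the fit of 8 groups. In replicates 1 to 3, 625 genes differed (4.88%), and in replicates 4 to 6, 503 (3.93%). Of the 193 rises of the full comparison, which was made on the same libraries, 97 passed in replicates 1 to 3 and 93 in replicates 4 to 6, and of the 395 falls, 278 and 251 passed. The sets nonetheless differed in their genotype effect for 100 genes (0.781%), of which 79 had opposite signs and 10 were among the 588. Without the 3 libraries numbered apart, 25 genes differed, 20 of them shared with the 100.

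H2-Aa, a chain of the class II molecule that presents peptides to T cells, was at 25.4 to 69.0 CPM in wild type against 45.2 to 56.0 CPM in knockout in replicates 1 to 3. In replicates 4 to 6 it was at 16.1 to 30.3 CPM in wild-type cells and 106 to 118 CPM in knockout. The log2FC was 0.05 in the first set and 2.21 in the second, and the difference passed the threshold (adjusted p = 0.0305). H2-Ab1, H2-Eb1, the invariant chain Cd74 and the class II transactivator Ciita did the same, with values of 0.01, 0.11, 0.00 and 0.16 in the first set and 2.14, 2.31, 1.96 and 2.00 in the second. Over all 6 replicates H2-Aa did not pass (log2FC 1.15, SE 0.40, adjusted p = 0.129), and none of the 10 genes tested rose past the threshold. H2-Aa passed without wild-type replicate 2 (log2FC 1.45, adjusted p = 0.039), the highest wild-type library.

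In mitosis genes the first set was the higher. All 30 were tested. In replicates 1 to 3, 13 were higher in knockout (median log2FC 0.69), beside 249 of all 12797 genes tested. In replicates 4 to 6 none was higher and 1 was lower (median -0.45), beside 185 and 318 of all genes. These counts depended on the fit. With replicates 1 to 3 fitted alone, none of the 30 passed, beside 305 of all genes. With replicates 4 to 6 fitted alone, 18 of the 30 were lower, beside 588 of all genes. The medians were the same in these fits. Over all 6 replicates none of the 30 passed (median 0.16). For 9 of them the difference between the sets passed. Birc5 (survivin) had a log2 fold change of 0.66 in the first set and -0.68 in the second (adjusted p of the difference 0.0208).

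Other genes also had opposite signs in the 2 sets. Ear2, an eosinophil-type ribonuclease, had a log2 fold change of -1.28 in replicates 1 to 3 and 1.47 in replicates 4 to 6 (adjusted p of the difference 0.000891). For Chil3, a chitinase-like protein, the values were -0.94 and 1.299 (adjusted p 0.0305). Its knockout libraries were at 140 to 412 CPM against 366 to 703 CPM in the first set, and at 303 to 442 CPM against 135 to 158 CPM in the second. Cd163, a hemoglobin scavenger receptor, went from 1.47 to -1.39 (adjusted p 0.0138). Apoe fell in both sets, by 1.28 and 0.46 on the log2 scale, and these falls differed in size (adjusted p 0.0373).

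**Figure D4:**
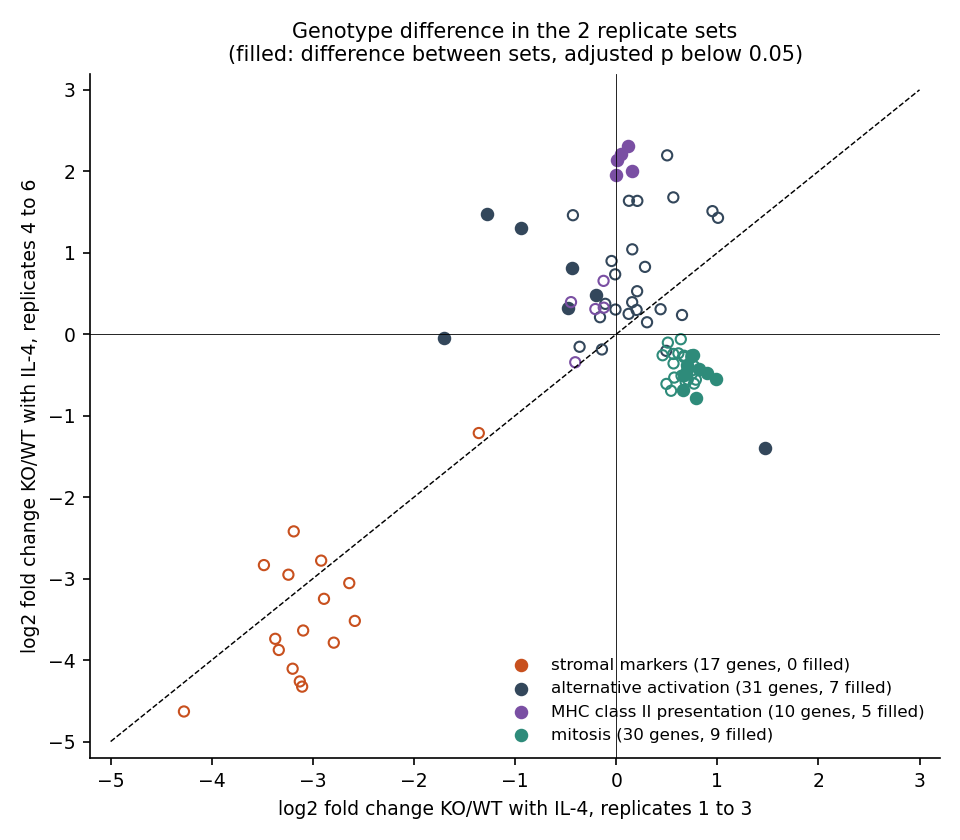
Log2 fold change of knockout over wild type with IL-4 in replicates 1 to 3 (x axis) and in replicates 4 to 6 (y axis) for tested members of 4 gene lists, with filled points where the difference between the sets had an adjusted p under 0.05, and a dashed line of equality. Stromal markers are negative in both sets, most of them more so in the second, and none is filled. Cxcl12 (-3.24 in the first set and -5.48 in the second) lies beyond the plotted range. Of the MHC class II genes, 5 sit near 0 in the first set and near 2 in the second. Mitosis genes are positive in the first set and negative in the second.

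Without IL-4, 579 genes differed between the genotypes (4.52%), 141 higher and 438 lower. In the column names these unstimulated libraries carry the same 12 numbers after the letters LS as the libraries with IL-4. The labels do not say what this LS number stands for. Of the 193 rises with IL-4, 71 also rose without it, which is 36.8% of the rises with IL-4 and 50.4% of those without. Of the 395 falls, 303 also fell, which is 76.7% and 69.2%. Among falls on no stromal list, 229 of 321 were shared. Wdfy1, Cdkn1c, Serpinb9b, Tnip3 and Npy passed in both states. Mgl2 was at 0.502 to 1.64 CPM in the wild-type libraries and 0.348 to 1.27 CPM in knockout without IL-4, where the groups overlapped (log2FC -0.52, adjusted p = 0.504).

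No gene's genotype difference depended on IL-4 past the threshold (0%; edgeR quasi-likelihood test, smallest adjusted p = 0.406). At an unadjusted p under 0.05 there were 390 genes, fewer than chance alone gives at that limit. The fit treats libraries that share an LS number as independent. DESeq2 called 1 gene and limma 3. For Mgl2 the log2FC was 1.71 (SE 0.37) higher with IL-4 than without (adjusted p = 0.406). Taking the LS number as a block, an alternative added after seeing the data, gave 664 genes at an unadjusted p under 0.05. This is about what chance gives, and 2 genes were called past the adjusted threshold. Csf1 fell less with IL-4 than without (difference 1.11 (SE 0.12), adjusted p = 0.0007), and for Lrrc32, the surface anchor of latent TGF-β, the difference was 1.20 (SE 0.17) (adjusted p = 0.0206). Lrrc32 was at 6.4, 7.74 and 10.0 CPM across wild type and 10.7, 15.5 and 17.9 CPM in knockout with IL-4. This rise did not pass with replicates 1 to 3 alone (adjusted p = 0.129) and passed in these replicates in the fit of 8 groups (0.0179).

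Since MK2 acts on AU-rich messages, the 3′ untranslated regions were searched for the AU-rich nonamer TTATTTATT on the sense strand, in the longest annotated region of each gene (GENCODE M21, GRCm38). The sites below are shown because they belong to a known target that rose (Dusp1), a cytokine that fell (Lif) and the best known target, whose message did not pass the threshold (Tnf). Each runs 5′ to 3′ in DNA letters with the nonamer in capitals and 10 bases on each side.
Dusp1 first site: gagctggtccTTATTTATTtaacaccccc
Dusp1 second site: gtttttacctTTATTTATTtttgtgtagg
Lif first site: aaaggggcctTTATTTATTatttaaaact
Lif second site: cagattatttTTATTTATTcaatgtcata
Tnf first site: tttgcacttaTTATTTATTatttatttat

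Tnf carried 5 copies of the nonamer that overlap one another. With IL-4, its level was 5.18, 6.76 and 8.55 CPM in wild type against 6.95, 7.56 and 8.38 CPM in knockout (log2FC 0.12, SE 0.11, adjusted p = 0.793). Without IL-4, Tnf was higher in knockout, at 11.1 to 15.5 CPM against 7.6 to 9.91 CPM (log2FC 0.66, adjusted p = 0.00015). Lif, a cytokine of the IL-6 family, was at 0.562, 1.09 and 2.44 CPM against 0, 0.139 and 0.335 CPM (adjusted p = 0.00109), and it missed the threshold with replicates 1 to 3 alone (0.0919). Of 30 tested targets of AU-rich decay, 3 rose (Dusp1, Mmp13 and Cxcl2) and 4 fell (Il1a, Lif, Nfkbiz and Socs3), beside 1.51% and 3.09% over all genes tested. The falls numbered 1 in the fit of 2 groups and with replicates 1 to 3 alone, and 5 with a term for the library set. Il1a, the cytokine interleukin-1α, went from a median of 7.84 CPM to 3.23 CPM (log2FC -1.26, adjusted p = 0.000169). Zfp36 had medians of 93.5 and 112 CPM (log2FC 0.22, adjusted p = 0.211), and passed with a term for the library set (0.23, adjusted p = 0.0456).

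The nonamer was present in 17 of 183 rises with a 3′ untranslated region (9.29%), in 7 of 72 stromal falls (9.72%) and in 32 of 307 other falls (10.4%), beside 948 of 11267 genes tested (8.41%). The falls outside the stromal lists had longer regions, with a median of 1733 bases against 1227 over all genes, and the share holding the nonamer was 2.4%, 7.24% and 15.6% among short, middle and long regions. The shares among the rises and falls are near that background.

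Promoters, taken as the 250 bases before the start in RefSeq (GRCm38.p6), were searched for TTCNNNNGAA, the spacing that STAT6 prefers, which reads the same on both strands. Among genes with a single promoter in the table it was found in 1 of 116 rises outside the stromal lists (0.862%), 5 of 175 falls outside them (2.86%) and 356 of 7467 genes tested (4.77%). The windows of Mgl2, Ccl22, Irf4 and Serpinb9b held no match.

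Genes near Mapkapk2 were examined by position, since a targeted locus can carry linked differences. Within 10 Mb of its start, 93 genes were tested, of which 2 differed (2.15%, beside 4.59% over all genes). The nearer of them was Cdk18, a kinase that rose, 1.04 Mb away (median 239 CPM to 337 CPM, log2FC 0.49, adjusted p = 0.000146).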

How the data were processed

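RNA-seq of bone-marrow-derived macrophages was deposited as a gene table of expected counts rounded by the authors, and as a signal that the authors deposited under the name GETMM, which also takes gene length into account. Per the labels' protocols, a Kapa Hyperprep kit was used and 40 bases were read from a single end. Per the submitters' processing notes, CASAVA 2.8.0, Bowtie2 2.3.4.1, RSEM 1.3.0 and edgeR were used with mm10. RSEM divides reads among similar genes, so levels of near-identical copies are uncertain, as are those of overlapping genes, since the labels do not say whether strand was kept.

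The expected counts were fitted in edgeR 4.0.16 (R 4.3.3) with the quasi-likelihood test, 4 groups of 6 libraries, TMM scaling and genes passing filterByExpr at a minimum count of 10 (12797 of 54429 genes, 99.8% of counts). p-values were adjusted by Benjamini-Hochberg over all genes tested at a threshold of 0.05, and the calculation was tested on simulated data. CPM uses TMM-scaled library sizes, and marker sums use total counts. Short reads without molecular identifiers make intervals and limits cover counting error only. Of 30 library pairs within the groups with IL-4, none agreed within sampling noise (lowest chi-square per degree of freedom 2.62).

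Named genes are the 5 markers, the largest stromal falls, the largest rises and falls by level, up to 4 called genes of each of 43 lists, 6 genes given in advance, genes near Mapkapk2 and those with the smallest p for the difference between states. Mapkapk3, Tnf, Zfp36, Stat6, Adgre1, Csf1r, Col1a1, the class II genes, the genes that differ between replicate sets, Csf1, Gm42429 and Gm7935 were chosen after their values were seen. The members and lists were chosen with earlier results of these data known. Alternatives were DESeq2 1.42.0, limma 3.58.1 on log2(GETMM + 1), other filters and scalings, other sample sets and leaving out each library with IL-4. Some genes that these rules pick are not reported here, and they were left out of the search for extreme libraries.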

Additional observations from a re-analysis of the deposited data

Results flagged for a closer look

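For each named gene and summed marker list, the highest and lowest of the 6 libraries of each group with IL-4 were compared with the nearest other library, and the gap was divided by the range of the group. Of 306 groups examined, 32 had a ratio above Dixon's 95% critical value, and chance alone gives about 1 in 20. Wild-type replicate 2 was the extreme library in 10 of them and wild-type replicate 5 in 6.

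Wild type replicate 2 was the highest of its group for Mapkapk2 (0.7115), Mfge8 (0.7638), Ticam1 (0.6666), Herpud1 (0.7340), Vwf (0.6376), Cdk18 (0.7375), Zfp36 (0.7313) and Stat6 (0.7895). Knockout replicate 5 was the highest of its group for Ccl22 (0.6252) and Gm42429 (1.0000). Wild type replicate 5 was the highest of its group for Thbs2 (0.6991), S100a4 (0.6633), Bgn (0.7656), Cdh11 (0.6572), Ctgf (0.6937) and Ppbp (0.6448). Knockout replicate 1 was the highest of its group for Myl9 (0.6622), Lox (0.6336) and Irs1 (0.7075). Knockout replicate 2 was the lowest of its group for Wdfy1 (0.6468) and the summed sex-linked genes (0.6848). Wild type replicate 1 was the highest of its group for Tnip3 (0.6616), Fabp5 (0.7054) and Egln3 (0.6884). Wild type replicate 6 was the lowest of its group for Cp (0.6835) and Sparc (0.6783). Knockout replicate 3 was the highest of its group for Pcdh7 (0.7299). Wild type replicate 2 was the lowest of its group for Cald1 (0.6507) and the summed sex-linked genes (0.7259). Knockout replicate 3 was the lowest of its group for Lyz2 (0.7477). Wild type replicate 4 was the highest of its group for Lif (0.6462). Knockout replicate 2 was the highest of its group for Cdk18 (0.7504).

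The genotype difference with IL-4 differed between replicates 1 to 3 and replicates 4 to 6 for 100 genes, in the fit of 8 groups with adjusted p under 0.05. Among named genes, the log2 difference was higher in replicates 4 to 6 by 0.82 for Apoe (a smaller fall), 2.24 for Chil3, 2.16 for H2-Aa, 2.14 for H2-Ab1, 2.19 for H2-Eb1, 1.96 for Cd74, 2.75 for Ear2, 1.58 for Acp5, 1.84 for Ciita and 1.24 for Itgax. The replicates 4 to 6 value minus the replicates 1 to 3 value was -1.32 for Cd81, -1.34 for Birc5, -2.86 for Cd163 and -1.12 for Tmem154.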

How the results depend on the processing

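The 588 genes called with IL-4 (193 higher, 395 lower) became 305 (77 and 228) with replicates 1 to 3 alone, 1056 (468 higher) with replicates 4 to 6 alone and 919 (385 higher) with a term for the library set. The falls under the last 2 and every total under DESeq2, RLE size factors, limma, both other filters, the fit of 2 groups and without the 3 libraries numbered apart stayed within 1.5 times of the main count. Leaving out 1 library gave 489 to 651 genes, 136 to 249 rises and 348 to 402 falls. The 74 stromal falls ran from 61 to 80 over the alternatives. The 579 genes called without IL-4 became 956 with replicates 4 to 6 alone and 1044 with the library set term. The difference between IL-4 and no IL-4, with no gene called, gave 1 with DESeq2, 3 with limma, 21 with replicates 4 to 6 alone and 2 with the LS number as a block. The 100 genes that differed between the replicate sets became 25 without the libraries numbered apart. The cause of these shifts was not tested.

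With the replicate block, 672 genes passed, 231 higher and 441 lower. Replicate numbers gave no clear pairing of the genotypes. Same-numbered libraries correlated from -0.07 to 0.482 in their deviations from the group means, and 3 of 6 pairs exceeded 0.1. Of the 6 wild-type libraries, 3 correlated best with their own number. The value of 0.482 was for replicate 2, numbered apart in both genotypes. With this block Retnla passed (log2 fold change 0.86, adjusted p = 0.0241), and Itgam and Itgb3 did not (adjusted p = 0.062 and 0.0585). Of 123 named genes past the threshold, 63 kept their call in every one of the 24 alternatives that tested them. Chil3, Ear2, Acp5 and Birc5 did not pass in the full comparison and had the opposite sign in 1 replicate set: Chil3 (log2 fold change 1.297 with replicates 4 to 6 alone), Ear2 (-1.28 with replicates 1 to 3 alone), Acp5 (0.39 with replicates 4 to 6 alone) and Birc5 (-0.68 with replicates 4 to 6 alone). Ccl22 lost its call in 7 alternatives and Adam19 in 10. Genes at about 1 CPM, such as Ccl22 and Lif, rest on few counts in each library, which limits their precision.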
